A study of Mus musculus with 2 samples.

Results

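The 10 genes described here, Mfn1, Mfn2, Opa1, Dnm1l, Fis1, Mff, Ppargc1a, Pink1, Tfam and Nrf1, encode the core machinery that fuses, divides, renews and clears mitochondria. They were chosen by gene symbol, by a rule that used no measured values but with earlier results of these data known. They make up 10 of 55536 annotated genes, and all were found in both quantifications of both libraries, with 87 annotated transcripts. Total RNA of the cortex on the left side of the brain was sequenced from male B6CASTF1/J mice, the first-generation hybrid of the B6 and CAST strains, at 18 to 20 months of age. The series holds a single group of 2 replicate libraries, each made from 300 ng of RNA with ERCC spike-ins, synthetic RNAs of known amount, so no genotype, treatment or age was compared. Both samples carry the same donor identifier and separate biosample identifiers. Whether these were 2 animals is not stated in the labels, and the replicate spread may be technical. RNA was measured in whole tissue, where fewer cells of a type and less RNA per cell cannot be told apart.

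Mitochondria form a network that is remodelled by membrane fusion and division. Mfn1 and Mfn2 are outer-membrane GTPases that tether and fuse neighbouring mitochondria, and Opa1 is the dynamin-like GTPase that fuses inner membranes and shapes cristae. Dnm1l (also called Drp1) is the cytosolic GTPase that constricts and divides mitochondria, and Mff and Fis1 are outer-membrane proteins, of which Mff recruits Dnm1l. Ppargc1a (PGC-1alpha) is a transcriptional coactivator of mitochondrial biogenesis, Nrf1 a transcription factor for nuclear genes of mitochondrial proteins, and Tfam the factor that packages and transcribes mitochondrial DNA. Pink1 is the kinase that accumulates on damaged mitochondria and starts their removal. In neurons these steps bear on how mitochondria are sized for and supplied to axons and dendrites.

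The libraries held 22827996 expected counts over annotated genes in replicate 1 and 29897545 in replicate 2, of which 24366 and 33600 came from the 10 genes. Their counts differed by more than sampling noise (chi-square per degree of freedom 12.2 over 19879 genes), so they were treated as separate libraries. All 6 listed markers of cortical excitatory neurons were detected, from Neurod6 at 25.6 TPM to Camk2a at 1112 TPM, and none of the 4 cerebellar markers found in the tables was. Detected means 1 or more TPM (transcript abundance scaled per length and to a common library total) in both libraries. All 10 listed markers of the striatum were higher in replicate 2, with summed levels of 222 and 438 TPM. The 6 excitatory markers summed to 1969 and 1806 TPM.

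Pink1 was the highest and Nrf1 the lowest of the 10 genes, and the machinery of division and fusion lay above the factors of biogenesis. All 10 were detected. In the first table, that with the layout of RSEM, their median was 65.9 TPM in replicate 1 and 65.9 TPM in replicate 2, against a median of 16.2 TPM over the 12868 detected nuclear protein-coding genes. Of 2 genes, 1 was called higher where its deposited interval of TPM lay wholly above that of the other in each library. By that rule 41 of the 45 pairs and 5 of the 9 pairs of neighbours in the order were told apart. The 4 neighbouring pairs that were not were Fis1 and Mff, Dnm1l and Mfn2, Opa1 and Mfn1, and Ppargc1a and Tfam.

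**Figure D1:**
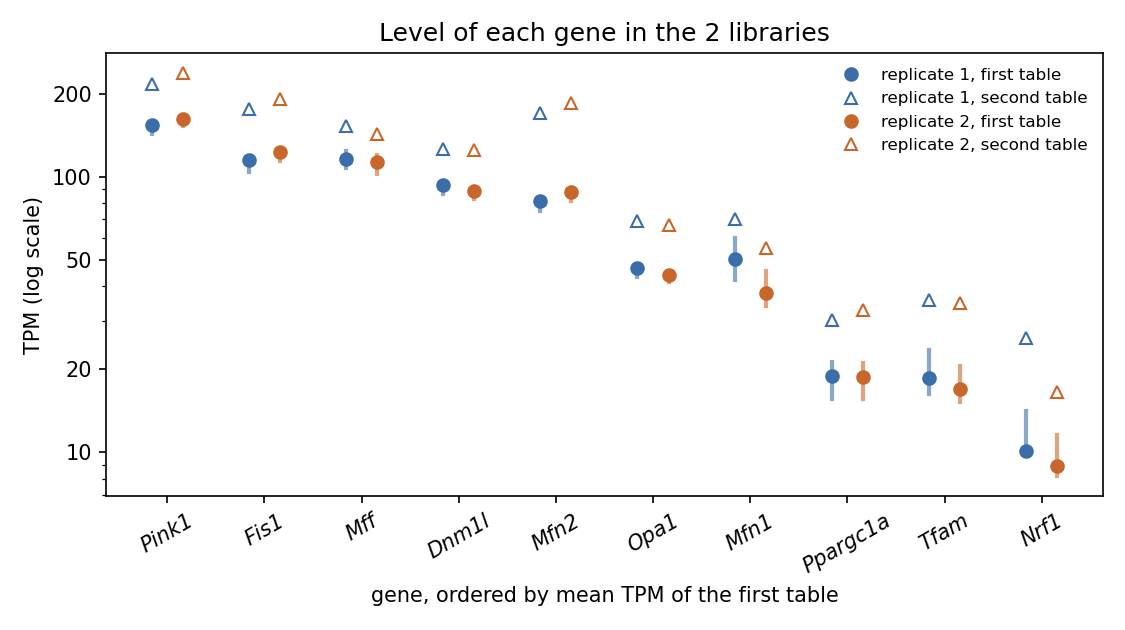
Level of each gene in TPM (log axis) in replicate 1 (blue) and replicate 2 (orange). Filled circles are the first table with its deposited intervals as bars, open triangles are the second table, which has no interval. Levels fall from 154 and 162 TPM for Pink1 to 10.1 and 8.87 TPM for Nrf1, and the triangles of Mfn2, with a mean of 177 TPM, lie far above its circles, with a mean of 84.7 TPM. Those of Nrf1, with a mean of 21.3 TPM, also lie far above its circles, with a mean of 9.47 TPM.

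Among the genes of division, Fis1 stood at 115 TPM in replicate 1 and 123 TPM in replicate 2 (mean 119 ± 6.06, SD, n = 2). Mff stood at 116 and 113 TPM (115 ± 2.62). The libraries of Fis1 and Mff overlapped, and the genes differed by 0.05 ± 0.11 on the log2 scale. Dnm1l, the dividing GTPase itself, stood at 93.7 and 88.5 TPM (91.1 ± 3.68), below both of them in both libraries. Mff exceeded Dnm1l 1.26-fold and Fis1 exceeded it 1.31-fold.

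Among the genes of fusion, Mfn2 stood at 81.5 and 87.9 TPM (84.7 ± 4.54). Opa1 stood at 46.5 and 44.0 TPM (45.2 ± 1.73). Mfn1 stood at 50.3 TPM in replicate 1 and 38.0 TPM in replicate 2 (44.1 ± 8.69), the widest spread of the 10 genes. Mfn2 was above its paralogue Mfn1 in both libraries, by 1.94-fold, whereas Opa1 and Mfn1 changed order between the libraries. Summed over the 3 genes of each kind in the first table, division stood at 325 and 325 TPM and fusion at 178 and 170 TPM. These sums depend on the level of Mfn2, which differed between the tables. Each of the 3 genes of division was above Opa1 and Mfn1 by the interval rule, while Mfn2 was not told apart from Dnm1l. In the second table Mfn2 was the higher, with Dnm1l over Mfn2 at -0.50 ± 0.10 on the log2 scale.

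Pink1, the kinase of mitophagy, stood at 154 and 162 TPM (158 ± 5.47), higher than 96.5% of the detected nuclear protein-coding genes. It was 1.33-fold above Fis1, the next gene in the order. Its TPM lay above the upper bound of its own deposited interval in both libraries, where that bound was 152 and 161 TPM, and the TPM of Nrf1 lay below the lower bound of 10.3 TPM in replicate 1. The interval rule for these 2 genes thus rests on bounds that do not contain the printed level.

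The 3 genes of biogenesis were the lowest. Ppargc1a stood at 18.9 and 18.8 TPM (18.8 ± 0.06), Tfam at 18.5 and 17.0 TPM (17.8 ± 1.07) and Nrf1 at 10.1 and 8.87 TPM (9.47 ± 0.85). Ppargc1a and Tfam were at percentiles 54.8 and 53.1 of detected nuclear protein-coding genes and Nrf1 at 34.1, so all 3 sat near or below the middle of the range. Each of the 7 other genes exceeded each of the 3 in both libraries. The closest of these gaps was that of Mfn1 over Ppargc1a, 1.22 ± 0.28 on the log2 scale.

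The second table, with the layout of kallisto, gave higher TPM for all 10 genes and the same highest and lowest gene. Other genes were higher there too, such as Camk2a, at 1792 and 1659 TPM against 1173 and 1050. Some were lower, such as Tomm7, at 26.0 and 27.7 TPM against 33.0 and 37.1. The share over all genes was not computed, so the rise is not read as particular to the 10. Within the 10, the second table placed Mfn2 at 177 ± 10.6 TPM, the 3rd in the order, above Mff at 148 ± 7.21 and Dnm1l at 125 ± 1.11. Mff over Mfn2 was 0.44 ± 0.11 on the log2 scale in the first table and -0.26 ± 0.16 in the second. The second value did not pass a rule of 3 times the SD. These 2 genes were thus told apart in the first table alone. The Mfn2 transcript with the largest rise in TPM was Mfn2-207, a partial coding model of 708 bases. It stood at 13.1 and 15.7 TPM in the first table and at 74.4 and 84.4 TPM in the second. Mfn2-203 and Mfn2-204 also stood higher in the second table, and Mfn2-201 and Mfn2-205 lower. The cause of the difference was not tested. The complete 757-codon reading frame of Mfn2, shared by 3 transcripts, held 78.6% ± 1.0 of the gene's TPM in the first table, 53.0% ± 0.51 in the second and 94.7% ± 0.45 of its expected counts. Ppargc1a and Tfam also changed places in mean level, at 31.5 ± 1.94 and 35.2 ± 0.67 TPM. They were not told apart in the first table. In the second, Ppargc1a over Tfam was -0.16 ± 0.12 on the log2 scale, within 3 times the SD.

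Between the replicates, 6 of the 10 genes were higher in replicate 2, 1 was lower and 3 were neither. Ratios are log2 of replicate 2 over replicate 1, from expected counts scaled by TMM (trimmed mean of M values), each with a 95% interval that covers counting error only. A gene was called where the interval excluded 0. By the same rule 26.3% of the 12868 detected nuclear protein-coding genes came out higher and 13.3% lower. Of the 7434 such genes with mean counts in the range of the 10 genes, 398 to 5969, 33.1% were higher and 15.4% lower. The median ratio was 0.09 over the 10 genes and 0.06 over those 7434, and all 10 ratios lay within the central 95% of the 7434, -0.33 to 0.32. No condition differed between the libraries, so these ratios describe only this pair.

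**Figure D2:**
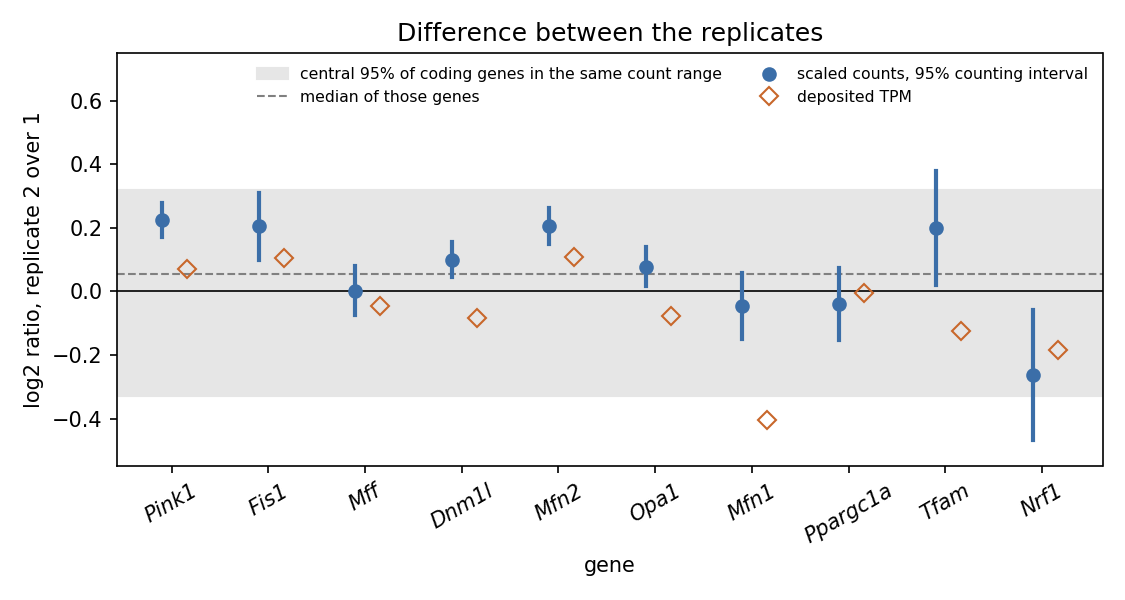
Log2 ratio of replicate 2 over replicate 1 for each gene, from TMM-scaled counts with 95% counting intervals (blue) and from deposited TPM (orange diamonds). The grey band is the central 95% of 7434 nuclear protein-coding genes in the same count range, and the dashed line their median of 0.06. The band is of count ratios and applies to the blue points, which all lie inside it. TPM ratios of the same 7434 genes have a median of -0.09, and that of Mfn1, -0.40, is the lowest diamond.

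For Pink1, 4809 and 7128 counts gave a ratio of 0.22 (0.17 to 0.28). For Mfn2, 4211 and 6163 counts gave 0.21 (0.15 to 0.26). Pink1 and Mfn2 were called higher under all 6 scalings tried. With spike-in scaling, which moved every ratio by -0.13, their ratios were 0.10 and 0.08. For Fis1, 1259 and 1841 counts gave 0.20 (0.10 to 0.31), and lost its call with spike-in scaling.

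For Dnm1l, 4603 and 6258 counts gave 0.10 (0.04 to 0.15), and for Opa1, 3711 and 4972 gave 0.08 (0.02 to 0.14). For Tfam, 440 and 641 counts gave 0.20 (0.02 to 0.38). The calls of Dnm1l, Opa1 and Tfam were lost with scaling by total counts, by nuclear protein-coding genes alone and by spike-ins. Those of Opa1 and Tfam were also lost with TMM over genes whose mean count reached 10 and at a 99% interval. With spike-ins Dnm1l stood at -0.026 and Opa1 at -0.047, the opposite sign, and Tfam at 0.073. Nrf1, with 387 and 409 counts, was lower under all 6 scalings, at -0.26 (-0.47 to -0.06) with TMM, and its call was lost at a 99% interval. Mff, with 2438 and 3099 counts, stood at 0.00 (-0.07 to 0.08). Ppargc1a, with 1149 and 1418, stood at -0.04 (-0.15 to 0.07). With spike-ins Mff and Ppargc1a were called lower, at -0.12 and -0.17. With total counts 3 of the 10 genes were higher and 1 lower, against 18.0% and 18.1% of detected nuclear protein-coding genes. With TMM over nuclear protein-coding genes the counts were again 3 and 1, against 17.6% and 18.4%. With spike-ins 2 were higher and 4 lower, against 6.91% and 31.5%. At a 99% interval 4 were higher and 0 lower, against 19.1% and 9.82%. The striatal markers given above moved with replicate 2 as well, at a median ratio of 1.11. Of 6 oligodendrocyte markers 5 were higher and none lower, at a median of 0.22 and summed levels of 679 and 706 TPM. Of 6 microglia markers 3 were higher and none lower, at a median of 0.18 and summed levels of 91.7 and 94.0 TPM. With spike-ins 10 striatal, 3 oligodendrocyte and 1 microglia markers were higher and none lower, at medians of 0.99, 0.10 and 0.05. With TMM, of 6 interneuron markers 3 were higher and none lower. Of 6 astrocyte and of 6 endothelial and pericyte markers, 2 were higher and 1 lower each. Of 6 excitatory markers 1 was higher and 3 lower. Over all 14708 detected genes the shares were 24.4% and 15.0%. The part of these marker lists in the differences was not tested.

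Mfn1 had a lower ratio in TPM than in counts. Its counts of 1359 and 1671 gave -0.05 (-0.15 to 0.06) with TMM, which was not called, and -0.17 with spike-ins, which was called lower. Its TPM gave -0.40, beside a median TPM ratio of -0.09 over the 7434 genes, and its deposited TPM intervals, 42.0 to 60.0 and 33.9 to 45.5, overlapped. TPM divides counts by an effective length that is averaged over the transcripts estimated in that library. This length was 1819 bases in replicate 1 and 2125 bases in replicate 2. Mfn1-204, a partial coding model of 616 bases, stood at 11.0 and 2.47 TPM. Mfn1-210, a retained-intron model of 246 bases, stood at 9.23 and 4.24 TPM. The deposited intervals of Mfn1-204, 0.44 to 12.9 TPM and 0.00011 to 7.13 TPM, overlapped over most of their width. In the second table Mfn1 also stood lower in replicate 2, at 70.0 and 55.3 TPM, while Mfn1-204 stood at 12.2 and 11.1 TPM and Mfn1-210 was listed at 0 in both.

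**Figure D3:**
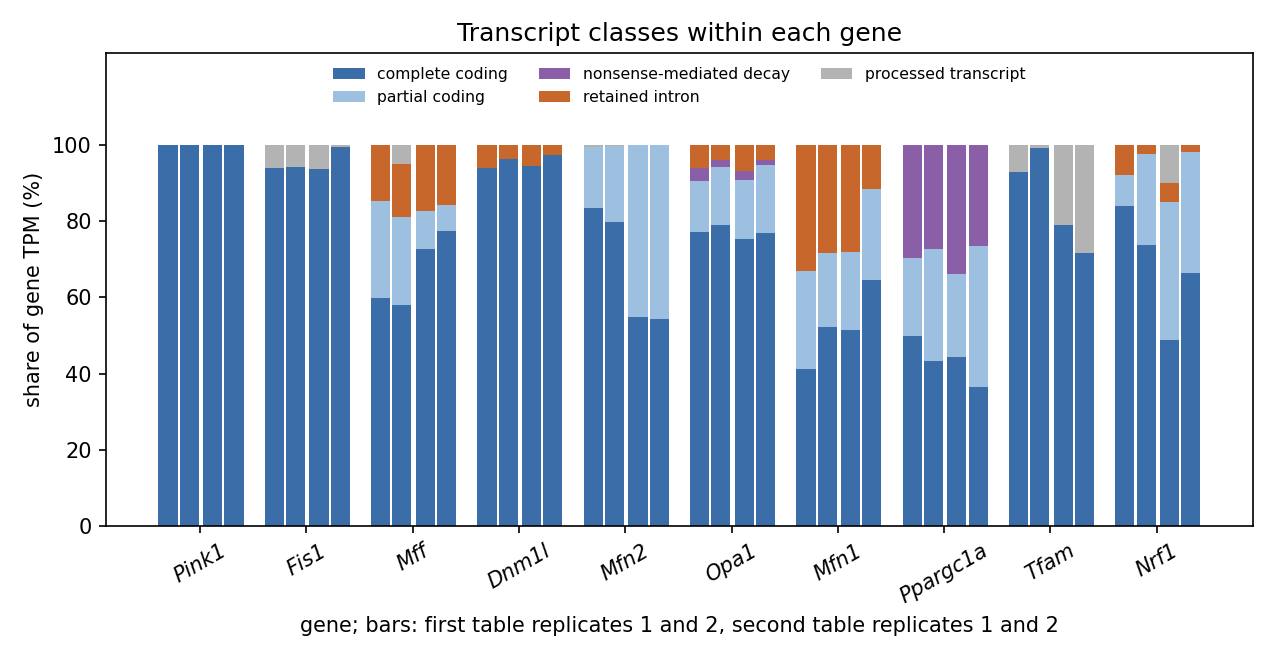
Share of each gene's TPM (percent) by annotated class of transcript, with 4 bars per gene: first table replicates 1 and 2, then second table replicates 1 and 2. Pink1 is 100% complete coding in all 4 bars, Ppargc1a has 36.4% to 49.9% complete coding, and Mfn1 carries the largest retained-intron share of the first table, 30.8% in the mean. In replicate 2 of the second table Mff, at 15.9%, lies above Mfn1, at 11.6%.

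Within the genes, the leading transcript (the largest share of the gene's TPM) was the same in both libraries for 9 of 10 genes, against 87.1% of 11661 detected nuclear protein-coding genes with 2 or more transcripts. In a tie the first transcript in order was taken, which bore on 40 of the 11661 genes and on Mfn1, where Mfn1-201 and Mfn1-202 tied at 9.92 TPM in replicate 2. The leading transcript was the same in both libraries and both tables for 3 of 10, Pink1, Opa1 and Mff, against 65.0% of the 11661. Leading shares ran from 25.1% ± 1.5 for Mfn1-201 to 82.4% ± 2.2 for Pink1-201, beside a median of 62.8% over those genes. Pink1-201, with 580 codons, stood at 82.1% ± 1.6 in the second table. The remaining 17.6% ± 2.2 was Pink1-202, whose 168 codons start at a downstream exon. Opa1-206, with 960 codons, held 76.6% ± 1.9 in the first table and 70.6% ± 3.6 in the second.

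Dnm1l was the gene whose leading transcript changed between the libraries: Dnm1l-202 held 33.2% and 39.7%, and Dnm1l-203 held 35.2% and 35.4%. In the second table Dnm1l-203 led in both, with 40.9% ± 2.7 against 25.5% ± 1.6. These transcripts differ in 3 cassette exons that keep the reading frame. The 39-base exon lies in the part encoding the GTPase domain, and the 78-base and 33-base exons in the part encoding the variable domain. They are printed 5′ to 3′ from the annotated transcripts, with the exon in capitals between 12 bases of each neighbouring exon.
Dnm1l 39-base exon, chr16:16342697-16342735, minus strand: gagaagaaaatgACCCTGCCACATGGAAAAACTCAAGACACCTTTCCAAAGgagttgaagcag
Dnm1l 78-base exon, chr16:16318764-16318841, minus strand: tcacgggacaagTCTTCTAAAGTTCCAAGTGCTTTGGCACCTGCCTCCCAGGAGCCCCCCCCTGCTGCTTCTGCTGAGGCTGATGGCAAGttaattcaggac
Dnm1l 33-base exon, chr16:16318445-16318477, minus strand: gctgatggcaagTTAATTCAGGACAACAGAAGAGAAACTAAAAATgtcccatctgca

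Inclusion of each exon was taken as the share of TPM of its including transcripts among those that include or skip it. The 39-base exon was included at 35.4% and 41.2% (38.3% ± 4.1) and at 26.6% ± 1.2 in the second table. The 78-base exon was included at 41.9% and 40.4% (41.2% ± 1.1) and at 44.0% ± 1.3 in the second. The 33-base exon was included at 54.0% and 49.1% (51.6% ± 3.5) and at 61.7% ± 0.65 in the second. The 39-base exon stands in Dnm1l-202 and no other annotated transcript, and the 78-base exon in Dnm1l-203 alone, so both shares rest on how reads were divided among whole transcripts. Dnm1l-203 is annotated with a start codon downstream of that of Dnm1l-202, which leaves 587 codons against 712. Transcripts with the upstream start codon held 62.3% ± 0.26 of the coding TPM in the first table and 53.6% and 50.4% (52.0% ± 2.3) in the second.

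**Figure D4:**
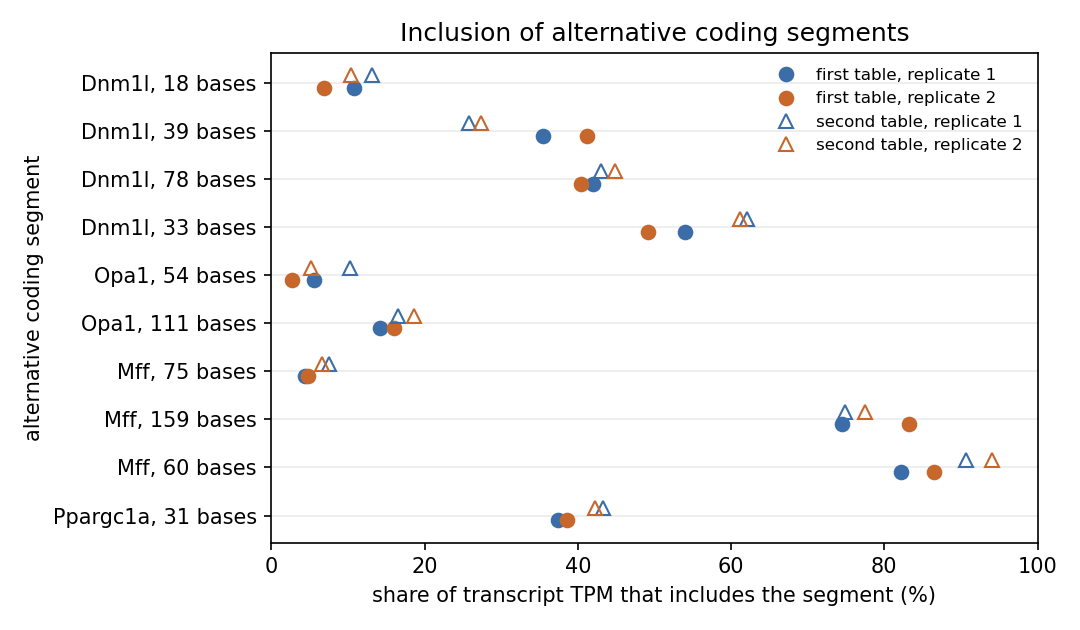
Share of TPM (percent) that includes each alternative segment, among transcripts that include or skip it. Circles are the first table, triangles the second, blue replicate 1 and orange replicate 2. Dnm1l exons of 33 to 78 bases lie between 25.7% and 62.1%, the Mff exons of 159 and 60 bases above 74%, and the Mff 75-base and Opa1 54-base exons at or below 10.3%.

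Opa1 has alternative exons in the stretch upstream of its GTPase domain, where the protein is processed by the proteases Oma1 and Yme1l1. Its leading transcript skipped both exons printed here, with the exon in capitals.
Opa1 54-base exon, chr16:29588823-29588876, plus strand: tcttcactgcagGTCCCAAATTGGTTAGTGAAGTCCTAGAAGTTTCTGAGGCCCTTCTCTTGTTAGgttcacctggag
Opa1 111-base exon, chr16:29597586-29597696, plus strand: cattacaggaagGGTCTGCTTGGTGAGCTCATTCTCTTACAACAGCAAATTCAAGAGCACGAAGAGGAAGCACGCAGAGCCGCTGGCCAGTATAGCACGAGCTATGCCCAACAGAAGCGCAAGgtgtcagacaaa
The 54-base exon was included at 5.60% and 2.68% (4.14% ± 2.07) and at 7.77% ± 3.59 in the second table. In the first table Opa1-205, annotated as a target of nonsense-mediated decay, held most of it, at 1.56 and 0.75 TPM. The complete coding Opa1-201 stood at 0.88 and 0.38 TPM there, with intervals that began near 0. In the second table Opa1-201 was the higher, at 5.01 and 2.44 TPM against 1.60 and 0.91. The 111-base exon was included at 14.1% and 16.0% (15.1% ± 1.3) and at 17.6% ± 1.5 in the second. Both tables thus placed skipping of each exon above inclusion in both libraries.

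Mff-202, with 291 codons, led in all 4 estimates at 48.3% ± 1.2 and 55.1% ± 1.6. Mff has a 75-base exon that was mostly skipped and exons of 159 and 60 bases that were mostly included. They are shown in the same manner.
Mff 75-base exon, chr1:82737013-82737087, plus strand: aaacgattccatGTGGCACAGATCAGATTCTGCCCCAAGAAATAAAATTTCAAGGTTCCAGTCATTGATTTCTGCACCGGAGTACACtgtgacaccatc
Mff 159-base exon, chr1:82741818-82741976, plus strand: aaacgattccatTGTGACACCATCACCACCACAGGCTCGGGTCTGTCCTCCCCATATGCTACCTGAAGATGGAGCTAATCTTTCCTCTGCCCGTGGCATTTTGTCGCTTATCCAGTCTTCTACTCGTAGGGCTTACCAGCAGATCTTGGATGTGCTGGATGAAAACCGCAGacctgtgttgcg
Mff 60-base exon, chr1:82747083-82747142, plus strand: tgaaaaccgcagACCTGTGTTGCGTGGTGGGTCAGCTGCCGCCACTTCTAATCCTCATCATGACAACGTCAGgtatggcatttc
The 75-base exon was included at 4.39% and 4.75% (4.57% ± 0.26) and at 7.05% ± 0.69 in the second table. The 159-base exon was included at 74.5% and 83.2% (78.9% ± 6.2) and at 76.2% ± 1.8 in the second. The 60-base exon was included at 82.2% and 86.5% (84.4% ± 3.0) and at 92.4% ± 2.4 in the second. By these shares the 75-base exon was lowest and the 60-base exon highest in each library and each table. The partial model Mff-203 holds only the first 67 bases of the 159-base exon and is left out of its share. Over those 67 bases inclusion was 78.3% and 87.1% in the first table. In replicate 2 that lay above the 60-base exon, so the order of the 2 upper exons there depended on this model.

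Ppargc1a was divided among 4 of its 5 transcripts in the first table, and its full-length form was not the whole. Ppargc1a-203, with 797 codons, held 49.9% and 43.3% (46.6% ± 4.7), and 40.3% ± 5.4 in the second table. Ppargc1a-201, with 270 codons, held 24.3% and 23.0% (23.6% ± 0.90), and 24.6% ± 0.77 in the second. Ppargc1a-204, with 266 codons, held 4.90% ± 0.87. The deposited intervals of Ppargc1a-201 were wide, 0.95 to 5.27 TPM in replicate 1 and 1.38 to 5.03 TPM in replicate 2. Those of Ppargc1a-204 began near 0, at 2.6e-05 to 3.98 TPM and 0.00038 to 3.14 TPM. The 2 shorter frames arise from a 31-base insertion at an alternative 3′ splice site, which brings in a stop codon early. Such an insertion is the textbook origin of the truncated form NT-PGC-1alpha, and the annotation calls both transcripts targets of nonsense-mediated decay. The insertion is printed in capitals after the 12 bases before it.
Ppargc1a 31-base insertion, chr5:51490091-51490121, minus strand: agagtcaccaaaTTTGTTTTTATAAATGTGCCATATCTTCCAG
It was included at 37.4% and 38.6% (38.0% ± 0.88) and at 42.7% ± 0.75 in the second table. The SD is the spread of the libraries and leaves out the width of the intervals of Ppargc1a-201 and Ppargc1a-204. Both libraries and both tables thus placed skipping above inclusion. As a share of expected counts, Ppargc1a-203 held 76.5% ± 1.4 and the class annotated as decay targets 20.9% ± 0.51.

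Ppargc1a is also transcribed from 2 annotated first exons that lie 13804 bases apart, each with its own start codon. Their coding bases are printed in capitals, followed by 12 bases of the shared second exon.
Ppargc1a proximal first coding exon, chr5:51553735-51553782, minus strand: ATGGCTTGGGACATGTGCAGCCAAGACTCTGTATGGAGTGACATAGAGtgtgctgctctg
Ppargc1a upstream first coding exon, chr5:51567630-51567665, minus strand: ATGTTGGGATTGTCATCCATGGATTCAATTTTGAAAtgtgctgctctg
The proximal exon held 74.2% and 66.3% of the TPM of coding and decay transcripts (70.3% ± 5.6), and 65.0% ± 6.4 in the second table. The upstream exon held 25.8% and 33.7% (29.7% ± 5.6). Most of the upstream share was Ppargc1a-202, a partial model, at 24.8% ± 6.4 of the gene's TPM but 2.53% ± 0.85 of its counts, so the level of the upstream exon rests on few reads over a short model.

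Fis1 and Tfam have alternative first coding exons too, and for these the tables disagreed. The first coding bases are printed in capitals with 12 bases of the next exon.
Fis1-201, 152 codons, chr5:136962184-136962228, plus strand: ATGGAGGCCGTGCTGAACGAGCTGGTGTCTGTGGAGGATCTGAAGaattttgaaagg
Fis1-202, 145 codons, chr5:136953567-136953590, plus strand: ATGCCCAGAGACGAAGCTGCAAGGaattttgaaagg
The start of Fis1-201 held 56.5% and 64.1% (60.3% ± 5.4) of coding TPM in the first table and 31.0% ± 2.0 in the second, where that of Fis1-202 led with 69.0% ± 2.0. Fis1-202 starts 8802 bases upstream of Fis1-201. The 2 reading frames join at the same base of the next exon, and which start was used more depended on the table.
Tfam-201, 243 codons, chr10:71237840-71237940, minus strand: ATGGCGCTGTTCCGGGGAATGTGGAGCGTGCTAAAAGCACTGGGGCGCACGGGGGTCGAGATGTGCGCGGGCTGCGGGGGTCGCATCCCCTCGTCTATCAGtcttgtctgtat
Tfam-202, 215 codons, chr10:71238235-71238251, minus strand: ATGGCAGGGGCCTGGGGtcttgtctgtat
Tfam-201 carries the known N-terminal mitochondrial targeting sequence, and Tfam-202 replaces the bases shown. Tfam-202 led in the first table with 58.2% ± 2.0 of the gene's TPM, ahead of Tfam-201 with 30.4% ± 4.3. In the second table Tfam-203, with 199 codons, led with 41.1% ± 3.1, Tfam-201 held 24.3% ± 2.4 and Tfam-202 9.91% ± 4.35. By expected counts Tfam-201 led with 72.1% ± 3.7. Among these 3 complete reading frames, the share of Tfam-201 in TPM was the value on which the tables came closest.

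Mfn1 and Nrf1 had the lowest leading shares of the 10 genes. Mfn1-201 and Mfn1-202 encode the same 741 codons and together held 41.3% and 52.2% of Mfn1 TPM, but 86.2% ± 2.4 of its counts. Nrf1-210 led Nrf1 with 30.9% ± 0.78, and the 4 transcripts with the same 503 codons held 54.8% ± 3.2 of its TPM. In the second table those 4 held 27.9% in replicate 1 and 51.6% in replicate 2, a difference larger than any between the replicates for the leading reading frame of the other genes.

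Retained-intron models were annotated for 5 of the genes and were lower in replicate 2 for all 5 in the first table. Their shares were 33.1% and 28.5% for Mfn1, 14.9% and 13.7% for Mff, 6.23% and 4.09% for Opa1, 7.86% and 2.42% for Nrf1 and 6.19% and 3.81% for Dnm1l. By expected counts such models held 6.08% ± 0.56 of Mfn1 and 16.5% ± 2.1 of Mff, so the order of these 2 genes depended on the unit. Over 7510 detected genes with such a model the median share was 13.5% in replicate 1 and 9.26% in replicate 2, and 78.6% of those genes were lower in replicate 2. The 5 genes moved the same way as most of the genes with such a model.

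In the promoter windows, 250 bases before to 50 after each annotated start in RefSeq on GRCm38.p6, motifs of the regulators of biogenesis were searched on both strands. All 10 genes matched, with 16 windows. The NRF1 motif, GCGC followed by 2 bases of any kind and GCGC, was present for Opa1 and Pink1, beside 6.997% of 27025 genes. The GABP motif CCGGAAGT was present for Fis1, Mfn1 and Tfam, beside 4.31%. The motif TCAAGGTCA of estrogen-related receptors was in none of the 10, beside 0.47%. The matches are printed with the motif in capitals, and the end of the motif lay 49, 36 and 39 bases before the start for Opa1, Mfn1 and Tfam. Fis1 had a match in the windows of both its starts, ending 10 bases before the upstream start and beginning 19 bases after the downstream start. The Pink1 match ended at the base before the start. These distances are from the RefSeq starts. In the GENCODE annotation used for the transcripts, Tfam-201 starts at base 71238280 and Pink1-201 at base 138326307, on the minus strand. By those starts the Tfam and Pink1 motifs lie after the start and not before it.
Opa1 NRF1 motif, chr16:29579275-29579284, plus strand: gtggctccccGCGCATGCGCatgtcatccg
Pink1 NRF1 motif, chr4:138326297-138326306, minus strand: accgccccccGCGCTTGCGCacaggcgccg
Fis1 GABP motif at the upstream start, chr5:136953257-136953264, plus strand: gaggcaccacCCGGAAGTtcaggcttcc
Fis1 GABP motif at the downstream start, chr5:136962096-136962103, plus strand: caggtcgatgCCGGAAGTgcctctccgc
Mfn1 GABP motif, chr3:32529438-32529445, plus strand: atccgaagcgCCGGAAGTagccgcccct
Tfam GABP motif, chr10:71238084-71238091, minus strand: ctgccgcggaCCGGAAGTccgggcttcc
A match is a string of letters and was not tied to binding by any measurement here.

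The wider pathway was read from 8 lists with 123 genes, of which 119 were detected. Of the 119, 55 were higher in replicate 2 and 8 lower, against 24.4% and 15.0% of all 14708 detected genes. With spike-in scaling these counts became 18 and 29, against 6.91% and 31.7% of all detected genes, so the list counts moved the same way as those over all genes. These shares are the background for the count of each list that follows. They cover detected genes whatever their counts. Over the 7434 nuclear protein-coding genes with mean counts of 398 to 5969, 33.1% were higher and 15.4% lower with TMM.

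**Figure D5:**
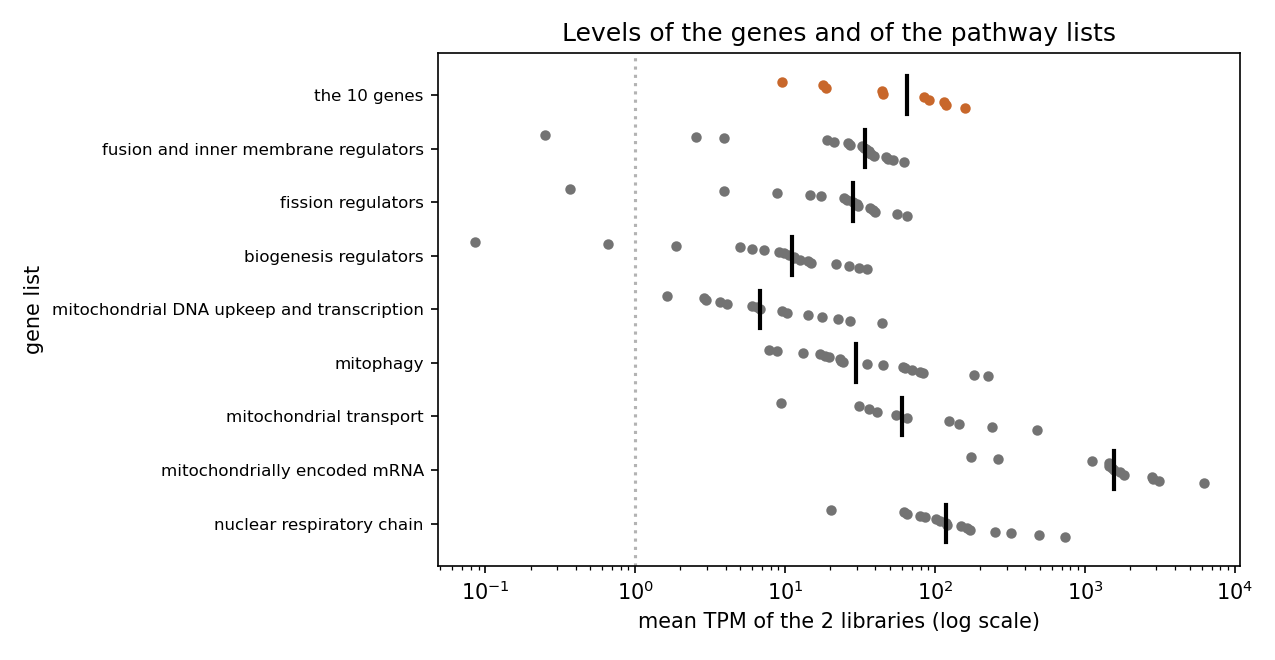
Mean TPM of the 2 libraries (log axis) for the 10 genes (orange) and for the genes of 8 pathway lists (grey), with the median of each list as a black bar and 1 TPM as a dotted line. The 10 genes run from 9.47 to 158 TPM, and mitochondrially encoded mRNAs reach 6234 TPM.

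Of 18 regulators of fusion and of the inner membrane, 17 were detected, with medians of 33.3 and 35.4 TPM. The highest were Immt, the core of the cristae junction complex, at 61.8 ± 0.15 TPM and Miga2, an outer-membrane protein that promotes fusion, at 52.5 ± 8.5 TPM. Pld6, a mitochondrial phospholipase, was the lowest at 0.25 ± 0.01 TPM. In replicate 2, 8 of the 17 were higher and none lower, but 1 and 2 with spike-in scaling. Oma1, the protease that cleaves Opa1 under stress, had the largest ratio at 0.57 (0.17 to 0.98), with 3.63 and 4.19 TPM. That ratio rested on 80 and 151 counts, and the second table gave Oma1 6.48 and 6.05 TPM, the opposite direction.

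Of 15 regulators of division, 14 were detected, with medians of 29.5 and 29.4 TPM. Spire1 at 64.6 ± 4.8 TPM and Inf2 at 55.4 ± 0.92 TPM, both actin assembly factors at sites of division, were the highest. Mtfr2 was the lowest at 0.36 ± 0.19 TPM. In replicate 2, 6 were higher and 1 lower, but 2 and 2 with spike-ins. Mief2, an adaptor of Dnm1l, had the largest ratio at 0.38 (0.13 to 0.62), and Dnm2, a classical dynamin, was the lower gene at -0.25 (-0.38 to -0.13). The TPM of Mief2 went the other way, at 9.19 and 8.40 and, in the second table, 13.2 and 12.9. Its direction thus depended on the unit.

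Regulators of biogenesis were detected for 16 of 18, with medians of 12.025 and 11.07 TPM. Sirt3, a mitochondrial deacetylase, at 35.3 ± 1.0 TPM and Esrra, a nuclear receptor partner of Ppargc1a, at 31.1 ± 1.6 TPM were above Ppargc1a itself in both libraries. Perm1, a partner of PGC-1 known from muscle, was the lowest at 0.085 ± 0.0071 TPM. In replicate 2, 3 were higher and 1 lower, but 0 and 6 with spike-ins. Ppargc1b, the paralogue of Ppargc1a, stood at 13.0 and 9.93 TPM and was lower in replicate 2 at -0.31 (-0.47 to -0.15), while Nfe2l2, a regulator of antioxidant genes, had the highest ratio at 0.27 (0.01 to 0.53). Mitochondrial DNA upkeep and transcription had all 15 genes detected, at medians of 6.87 and 7.16 TPM. Polg, the mitochondrial DNA polymerase, led with 44.4 ± 6.6 TPM, above the matrix protease Lonp1 at 27.0 ± 1.3 TPM, and its accessory subunit Polg2 was the lowest at 1.62 ± 0.47 TPM. In replicate 2, 2 were higher and 2 lower, but 0 and 5 with spike-ins. Twnk, the mitochondrial helicase, was higher at 0.27 (0.05 to 0.49) and Ssbp1, the single-strand binding protein, lower at -0.38 (-0.60 to -0.16).

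Mitophagy had all 18 genes detected, at medians of 29.6 and 31.1 TPM. The receptors Sqstm1 at 226 ± 9.1 TPM and Fkbp8 at 183 ± 2.7 TPM were above Pink1. In replicate 2, 9 were higher and 1 lower, but 2 and 4 with spike-ins. The ends were Tomm7, a translocase subunit that stabilises Pink1, at 0.30 (0.14 to 0.47) and the autophagy receptor Nbr1 at -0.23 (-0.29 to -0.16). All 10 genes of mitochondrial transport were detected, led by the axonal motors Kif5a at 477 ± 0.16 TPM and Kif5c at 241 ± 15 TPM, with Armc10 lowest at 9.41 ± 0.23 TPM. Of the 10, 4 were higher in replicate 2 and none lower, but 0 and 5 with spike-ins.

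Of 16 nuclear genes of the respiratory chain, 14 were higher in replicate 2 and none lower, against 24.4% and 15.0% of all detected genes, with a median ratio of 0.19 beside 0.04. Over the 7434 nuclear protein-coding genes with mean counts of 398 to 5969, 33.1% were higher and 15.4% lower, at a median of 0.06. With spike-in scaling 7 of the 16 were higher and 1 lower, against 6.91% and 31.7% of all detected genes, at a median of 0.07. Atp5b, a subunit of ATP synthase, stood at 733 ± 8.8 TPM and Cox4i1 at 493 ± 21 TPM. Cycs, cytochrome c, was the lowest at 20.2 ± 2.8 TPM but stood at 182 and 195 TPM in the second table, so its level is uncertain. Ndufa9 had the largest ratio at 0.28 (0.17 to 0.38). Of 13 mitochondrially encoded mRNAs, 9 were higher and 3 lower, but 6 and 4 with spike-ins. Their counts ran from 1160 and 1399 for mt-Nd6 to 131608 and 189910 for mt-Co1. At high counts the intervals are narrow and small ratios are called. No share over genes with such counts was computed, so these calls are not read as particular to the list. In the first table mt-Co1 at 6234 ± 157 TPM and mt-Cytb at 3102 ± 22 TPM were the highest and mt-Nd6 the lowest at 173 ± 18 TPM. In the second table mt-Co1 was again the highest, but mt-Atp6 at 8514 and 9070 TPM and mt-Co3 at 5226 and 5492 TPM lay above mt-Cytb at 4801 and 5138 TPM. The second table placed mt-Nd4l at 5.20 and 20.4 TPM, against 1849 and 1600 in the first, and mt-Nd3 at 62.4 and 762 TPM, against 1432 and 1480. The order below mt-Co1 thus depended on the table. The largest ratios, mt-Co2 at 1.25 (1.16 to 1.33) and mt-Atp8 at -0.16 (-0.23 to -0.08), are uncertain. The first table gave mt-Co2 166 and 358 TPM and the second 1444 and 2047, and mt-Atp8, at 1718 and 1405 TPM in the first, is listed at 0 in the second.

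Genes that overlap the 10 in the annotation were near 0. The highest, Gm28941 within Mff, stood at 2.27 and 1.42 TPM. No source used here says whether counting used strand, so reads of antisense partners could not be separated, and of the 5 genes on the opposite strand C430014B12Rik at Mff held 1 and 4 counts, Gm49521 at Dnm1l held 1 and 2, and the other 3 held 0.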

How the data were processed

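Each library had 3 deposited tables, per the deposited file lists, on mm10 with GENCODE M21: gene and transcript tables in the layout of RSEM (the first table) and a transcript table in the layout of kallisto (the second). No source used here gives the aligner, the tool versions, the settings or the use of strand. The deposited expected counts are unnormalized estimates of reads, and those of the second table are estimated counts. The deposited TPM is scaled per length to a common total over all listed features. The deposited interval bounds of TPM (a signal per feature) have no stated level. The deposited percent is each transcript's share of its gene's TPM. CAST variants were not measured and could lower counts on the reference genome.

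Gene rows were joined by identifier, and the second table was summed per gene. Expected counts were rounded to whole numbers, 0.5 was added, and ratios were scaled with the TMM method (edgeR 4.0.16, R 4.3.3; factors 1.02 and 0.984, a shift of 0.34 in log2). DESeq2 1.42.0 size factors, total counts, spike-ins, TMM over nuclear protein-coding genes and TMM over genes whose mean count reached 10 were the other scalings. Exact (Clopper-Pearson) 95% intervals were taken from the 2 counts of a gene in Python 3.11.15 with SciPy 1.17.1. They cover counting error only, and leave out the spread between replicates and the error of dividing reads among transcripts. Because no molecular identifiers were used in the tables, several reads can stem from 1 molecule. The counting error itself may therefore be larger than the intervals show. The ratio calculation was tested on simulated counts with sampling noise alone, which is the noise that the intervals assume. That checks the calculation only. It cannot speak to the calls in these libraries, whose counts differed by more than sampling noise. With 1 group of 2 libraries no test between groups and no p-value was possible, and values are mean ± SD over 2 libraries. All 10 genes are named. From each pathway list the 2 highest and the lowest gene by mean TPM were named, with the largest called ratio in each direction. A gene that this rule selects is not reported here. The 10 genes and the lists were chosen with earlier results of these data known.

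Alternative exons and first coding exons were taken from the annotation, sequences from its transcripts, and promoter windows from RefSeq. The exons, first exons and motif matches printed were chosen after their values were seen.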

Additional observations from a re-analysis of the deposited data

How the results depend on the processing

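The median level of the 10 genes, 65.9 TPM, was 96.9 in the second table, 145 over nuclear protein-coding genes alone and 64.9 with deposited posterior means, and 65.9 when either replicate was left out. The 41 pairs told apart became 39 and 38 with a rule of 3 times the SD, in the first and second table, and 41 to 42 with a replicate left out. Mff over Mfn2 turned to -0.26 in the second table, which did not pass the rule of 3 times the SD. Genes higher in replicate 2 numbered 6, but 3 with total counts, 3 with TMM over nuclear protein-coding genes and 2 with spike-ins. The lower gene became 4 with spike-ins and 0 with a 99% interval. With spike-ins the median ratio was -0.037, Mff -0.12, Mfn1 -0.17 and Ppargc1a -0.17 (each called lower), Dnm1l -0.026 and Opa1 -0.047. Pathway genes became 18 higher and 29 lower. With deposited TPM in place of counts, an alternative chosen after seeing the data, the median was -0.062, Dnm1l -0.082, Opa1 -0.078 and Tfam -0.12, beside a median TPM ratio of -0.09 over all detected nuclear protein-coding genes. The second table kept the same leading transcript in both libraries for 8 genes and shares of expected counts for 9. The cause was not tested. No paired analysis was possible because there is a single group. Depth limited Nrf1 and Tfam most, with the widest counting intervals of the 10. Isoform shares of short or partial models rest on how each program divided shared reads.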
